A study of Mus musculus with 16 samples.

Results

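The 10 genes Gata4, Gata5, Gata6, Nkx2-5, Hand1, Hand2, Isl1, Mef2c, Myocd and Smyd1 encode nuclear factors that act in heart progenitor cells, and their transcript levels were followed in differentiating mouse embryonic stem cells treated with a hawthorn extract. The members were chosen by gene name, as every array probe assigned to one of these genes, out of 29300 named genes on the array. The array held 16 probes for them, of which 5 probes of 4 genes carried the gene's name in the files and 11 were assigned through the RefSeq accession of the probe. Probes that stood well above background in all arrays of some group were tested, which left 10 probes of 9 genes. Both Gata5 probes were well above background on none of the 16 arrays, so Gata5 has no measured level here. A second Gata6 probe reached it on 1 array, a second Myocd probe on 3 arrays and the other 2 Mef2c probes on none.

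The cells were CGR8-Myh6-GFP, a single embryonic stem cell line in which green fluorescent protein is driven by the promoter of Myh6, a cardiac myosin heavy chain gene. All groups were differentiated on multiwell plates without the self-renewal factor LIF and received their treatment on day 4, so every group shared the cell line, the medium and the time of addition. The 6 groups were DMSO, the solvent control, with 2 arrays per time point, WS1442, a standardised hawthorn (Crataegus) extract at 0.25 mg/ml, with 3 arrays, and MeOH eluate, a methanol subfraction of WS1442 rich in oligomeric procyanidins, at 0.1 mg/ml, with 3 arrays, each after 6 h and after 24 h. RNA came from whole wells, in which progenitors are mixed with other cell types, and a change in a transcript can therefore come from fewer cells of a type or from less RNA per cell, which cannot be told apart. The labels do not state whether arrays of a group came from separate cultures, so p-values measure the spread between these samples, which may be technical.

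Cardiac progenitors arise from mesoderm and switch on a small network of transcription factors before any contractile protein is made. Gata4, Gata5 and Gata6 are zinc finger proteins that bind GATA motifs, and Gata4 and Gata6 are also active in extraembryonic and definitive endoderm. Nkx2-5 and Isl1 are homeodomain proteins, Isl1 being best known from second heart field progenitors and motor neurons. Hand1 and Hand2 are basic helix-loop-helix factors that bind E-boxes with a partner, Hand1 in the left ventricle, extraembryonic mesoderm and trophoblast, and Hand2 mainly in the right ventricle and outflow tract. Mef2c is a MADS-box factor, Myocd is a coactivator of serum response factor in heart and smooth muscle, and Smyd1 is a muscle histone methyltransferase.

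The promoter windows of 2 of the 3 members that changed and held the GATA core motif GATAA are shown, since Gata4 and Gata6 are among the members that moved most. Each is the 250 bases before the RefSeq start site, read 5′ to 3′ on the gene's strand in GRCm38.p6, and capitals mark GATAA on either strand (TTATC on the lower strand). Hand2 lies at chr8:57320733-57320982 on the plus strand, with GATAA matches beginning 214 and 172 bases before the start site, and Isl1 at chr13:116309689-116309938 on the minus strand, with 1 match 114 bases before it.
Hand2: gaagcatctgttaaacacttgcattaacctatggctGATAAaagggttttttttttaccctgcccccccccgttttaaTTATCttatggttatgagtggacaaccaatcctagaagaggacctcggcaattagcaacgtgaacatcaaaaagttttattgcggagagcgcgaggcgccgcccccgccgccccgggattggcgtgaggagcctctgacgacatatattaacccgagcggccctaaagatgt
Isl1: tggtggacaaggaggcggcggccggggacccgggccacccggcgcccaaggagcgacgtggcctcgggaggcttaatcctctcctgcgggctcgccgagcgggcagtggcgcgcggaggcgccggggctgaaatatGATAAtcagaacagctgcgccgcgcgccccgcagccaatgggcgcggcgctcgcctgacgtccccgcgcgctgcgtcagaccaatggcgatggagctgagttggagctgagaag
The table of promoters held 8 windows of 6 members, and 3 of the 8 contained GATAA on either strand, against 22.6% of 32851 windows of the same length. The third was one of 3 Mef2c promoters. The letters AAGTG, the core bound by Nkx2 proteins, stood in 5 of the 8 (40.7% of all windows), and the E-box CANNTG in 6 of the 8 (66.2%), both strands searched. None of the GATAA matches overlapped another motif. These matches describe the letters in the windows and show no binding.

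The probes behind the 2 readings of Hand1 are shown because 1 of them passed the test and the other did not, which does not show that their changes differ. The first 30 bases of each, as the files list them, were as follows.
Hand1, brighter probe: gtctttggacgtctgaacccttctccctcg
Hand1, second probe: acaccgaaccaggcgcctgagaggctagag
The brighter probe was assigned through a RefSeq accession and the second by the gene name in the files. Each gene was read by its tested probe with the highest mean signal, and levels of different probes were not set against each other, because probes differ in brightness for reasons other than transcript number.

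Over the 16 arrays, 55.1% to 63.0% of spots were well above background, RNA integrity numbers were 8.6 to 10, and arrays of a group correlated at r = 0.983 to 0.9945 over all tested probes. The lowest of these was the pair of DMSO arrays at 24 h, of which replicate 1 had 63.0% of spots above background and replicate 2 had 55.5%. All 8 arrays of a time point lay on 1 slide, so comparisons within a time point were free of slide, while any difference between 6 h and 24 h cannot be told apart from slide. Of the cardiac and stem cell markers, all 9 pluripotency genes, Tnnt2, Actc1 and Nppa were well above background on all 16 arrays. Myh6 reached it on 3 arrays and Myh7 on none.

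In the DMSO groups the members fell into those that stood higher at 24 h and those that did not. Log2 levels were higher at 24 h than at 6 h by 1.35 for Gata4, 1.30 for Isl1, 1.29 for Hand2, 0.60 for Gata6 and 0.38 for Smyd1. Mef2c was lower by a log2 difference of -0.38, Myocd by -0.33, Hand1 by -0.20 and Nkx2-5 by -0.15. These are descriptions without a test, because time point and slide coincided.

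**Figure D1:**
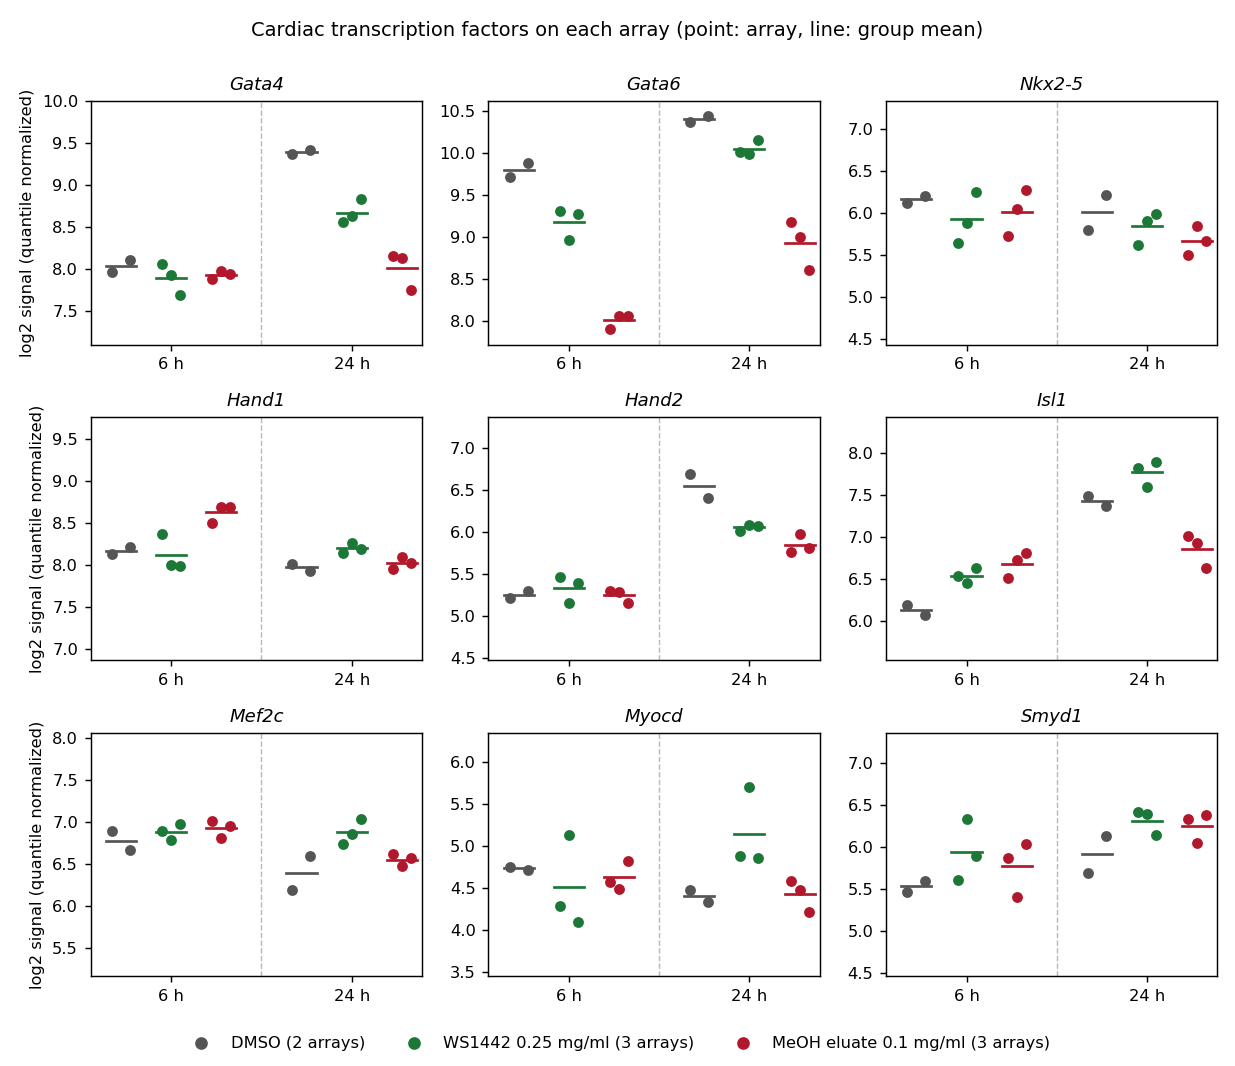
Log2 signal (quantile normalized) of the leading probe of the 9 measured member genes in the 6 groups. Each point is 1 array and each horizontal line a group mean, 2 for DMSO and 3 for each treatment at each time. The MeOH eluate arrays lie below the DMSO arrays for Gata6 at both times and for Gata4, Hand2 and Isl1 at 24 h.

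Gata6 was the member that fell at the earlier time, with both preparations. On the log2 scale the 2 DMSO arrays at 6 h read 9.72 and 9.89, the WS1442 arrays 9.32, 8.98 and 9.28, and the MeOH eluate arrays 7.91, 8.06 and 8.07. The 3 groups did not overlap, with DMSO highest and MeOH eluate lowest. WS1442 lowered Gata6 1.53-fold (log2 change -0.62, SE 0.14, limma adjusted p = 0.0206) and MeOH eluate 3.47-fold (log2 change -1.79, SE 0.14, limma adjusted p = 9.94e-07). The WS1442 call was lost without DMSO 6 h replicate 1 (limma adjusted p = 0.104), without DMSO 6 h replicate 2 (0.122) and without WS1442 6 h replicate 2 (0.0595), and also without the variance trend of the fit (0.0541). At 24 h the DMSO arrays read 10.37 and 10.44, the WS1442 arrays 10.02, 9.99 and 10.16, and the MeOH eluate arrays 9.18, 9.0 and 8.61. The MeOH eluate arrays were again the lowest, 2.78-fold under DMSO (log2 change -1.48, SE 0.14, limma adjusted p = 3.52e-06). All 3 WS1442 arrays lay below both DMSO arrays, but the change of -0.35 (SE 0.14) did not pass the test (limma adjusted p = 0.0786). It passed without MeOH eluate 24 h replicate 3 (0.0256).

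Gata4 fell with both preparations at 24 h. At 6 h the DMSO arrays read 7.97 and 8.12, the WS1442 arrays 8.06, 7.93 and 7.69, and the MeOH eluate arrays 7.88, 7.98 and 7.94, and the groups overlapped. The 6 h changes were -0.15 with WS1442 (95% confidence interval -0.42 to 0.12) and -0.11 with MeOH eluate (-0.38 to 0.16). At 24 h the DMSO arrays stood at 9.37 and 9.41, the WS1442 arrays at 8.56, 8.63 and 8.84, and the MeOH eluate arrays at 8.16, 8.13 and 7.76. The 3 groups were separate, in the order DMSO, WS1442, MeOH eluate. WS1442 lowered Gata4 1.65-fold (log2 change -0.72, SE 0.13, limma adjusted p = 0.00098) and MeOH eluate 2.60-fold (log2 change -1.38, SE 0.13, limma adjusted p = 3.37e-06). The MeOH eluate arrays at 24 h thus read close to the levels of the DMSO arrays at 6 h, a side-by-side reading across slides without a test.

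Isl1 rose with MeOH eluate at 6 h and fell with it at 24 h. At 6 h the DMSO arrays read 6.18 and 6.07, the WS1442 arrays 6.53, 6.45 and 6.63, and the MeOH eluate arrays 6.51, 6.72 and 6.81. Every treated array lay above both DMSO arrays. The rise was 1.47-fold with MeOH eluate (log2 change 0.55, SE 0.13, limma adjusted p = 0.00981), and the WS1442 change of 0.41 (SE 0.13) did not pass (limma adjusted p = 0.0917). At 24 h the DMSO arrays read 7.49 and 7.37, the WS1442 arrays 7.82, 7.60 and 7.89, and the MeOH eluate arrays 7.02, 6.93 and 6.63. The preparations thus lay on opposite sides of DMSO at 24 h. MeOH eluate lowered Isl1 1.48-fold (log2 change -0.57, SE 0.13, limma adjusted p = 0.00674), while the WS1442 change of 0.34 (SE 0.13) did not pass (limma adjusted p = 0.0724). The 6 h call was lost without DMSO 6 h replicate 2 (0.0788) and the 24 h call without DMSO 24 h replicate 1 (0.0748). The WS1442 change at 24 h passed without MeOH eluate 24 h replicate 3 (0.0485) or without WS1442 24 h replicate 2 (0.0438). The latter was the array with the lowest RNA integrity number, 8.6.

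Hand2 was lower with both preparations at 24 h. The DMSO arrays at 24 h read 6.69 and 6.40, the WS1442 arrays 6.02, 6.08 and 6.07, and the MeOH eluate arrays 5.76, 5.97 and 5.81. All 6 treated arrays lay under both DMSO arrays. The fall was 1.40-fold with WS1442 (log2 change -0.49, SE 0.13, limma adjusted p = 0.0159) and 1.62-fold with MeOH eluate (log2 change -0.70, SE 0.13, limma adjusted p = 0.00187). Without DMSO 24 h replicate 1 the WS1442 change was -0.34 and lost its call (0.207). At 6 h the 8 arrays ranged from 5.15 to 5.46 and the groups overlapped, with changes of 0.08 for WS1442 (95% confidence interval -0.20 to 0.37) and -0.01 for MeOH eluate (-0.29 to 0.28).

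Hand1 rose with MeOH eluate at 6 h. The DMSO arrays at 6 h read 8.12 and 8.21, the WS1442 arrays 8.36, 7.99 and 7.98, and the MeOH eluate arrays 8.49, 8.69 and 8.69. The MeOH eluate arrays stood above all the others. The rise was 1.37-fold (log2 change 0.46, SE 0.11, limma adjusted p = 0.00905) and was not called without DMSO 6 h replicate 1 (0.0999). The second Hand1 probe was also higher on all 3 MeOH eluate arrays, but its change of 0.22 (SE 0.22) did not pass (limma adjusted p = 0.563). At 24 h the 3 WS1442 arrays of the brighter probe were above both DMSO arrays (change 0.23, SE 0.11, limma adjusted p = 0.143), and the MeOH eluate arrays, at 7.94, 8.09 and 8.02, overlapped the DMSO arrays at 8.01 and 7.93.

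Mef2c rose with WS1442 at 24 h. The DMSO arrays read 6.20 and 6.60, the WS1442 arrays 6.74, 6.87 and 7.04, and the MeOH eluate arrays 6.62, 6.48 and 6.57. The WS1442 arrays stood above both DMSO arrays and above all MeOH eluate arrays. The rise was 1.40-fold (log2 change 0.48, SE 0.13, limma adjusted p = 0.0152). It rested on 2 arrays, since it was 0.28 without DMSO 24 h replicate 1 (0.254) and 0.40 without WS1442 24 h replicate 3 (0.066). At 6 h the changes were 0.10 with WS1442 (limma adjusted p = 0.753) and 0.14 with MeOH eluate (0.512).

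Nkx2-5, Myocd and Smyd1 did not pass the test in any of the 4 comparisons with DMSO. Nkx2-5 ranged from 5.50 to 6.27 over all 16 arrays, with overlapping groups in each comparison and changes of -0.34 to -0.15. Its widest change, -0.34 with MeOH eluate at 24 h, had a 95% confidence interval of -0.77 to 0.09. Both no change and a fall larger than the estimate lay within that interval. Smyd1 was above DMSO on every WS1442 array at both times (changes 0.41, SE 0.22, limma adjusted p = 0.337 at 6 h, and 0.40, SE 0.22, 0.204 at 24 h). Myocd read 4.87, 5.70 and 4.85 on the WS1442 arrays at 24 h against 4.47 and 4.32 on the DMSO arrays. That change of 0.74 (SE 0.30, limma adjusted p = 0.0886) had the widest error of the members, and replicate 2 stood above the other 2 WS1442 arrays by more than they differed from each other. WS1442 24 h replicate 2 also had the lowest RNA integrity number of the 16 arrays, 8.6. With the part of the slide on which an array lay as a block, the WS1442 changes of Myocd (limma adjusted p = 0.0462) and Smyd1 (0.038) at 24 h passed.

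Counts over the 9 tested members depended on single arrays, and with 1 array left out in turn the WS1442 count lay between 0 and 1 at 6 h, and at 24 h between 1 (without DMSO 24 h replicate 1) and 5 (without MeOH eluate 24 h replicate 3). The MeOH eluate count lay between 2 and 3 at 6 h and between 3 and 4 at 24 h. The methods' t-test after adjustment passed 0 members in each of these comparisons, where few genes passed at all. Over all genes it passed 1 with WS1442 and 5 with MeOH eluate at 6 h, and 7 and 177 at 24 h. With all arrays in limma, WS1442 at 6 h changed 1, a fall, against 5.29% of 29241 genes tested that changed in either direction. MeOH eluate at 6 h raised 2 and lowered 1 (17.0% of genes changed), WS1442 at 24 h raised 1 and lowered 2 (24.7% of 29249), and MeOH eluate at 24 h raised 0 and lowered 4 (18.2% of 29247, of which 8.57% were lower). The median member change was -0.06, -0.01, 0.23 and -0.34 in that order, against -0.01, 0.00, 0.05 and 0.01 over all genes. With a log2 change beyond 1 at an unadjusted p under 0.05, the thresholds of the study's methods, Gata6 passed at 6 h with MeOH eluate (2.10% of genes) and Gata4 and Gata6 at 24 h (3.00% of genes), and no member passed with WS1442 at 6 h (0.434%) or 24 h (2.09%). Treated and DMSO arrays did not overlap for 3 of 9 members with WS1442 at 6 h (36.0% of genes), 3 with MeOH eluate at 6 h (50.2%), 8 with WS1442 at 24 h (51.2%), and 4 with MeOH eluate at 24 h (43.6%). Of the 8 with WS1442 at 24 h, 5 were higher and 3 lower. All 4 with MeOH eluate at 24 h were lower. As the comparisons at a time point shared their DMSO arrays, they were not set against each other by a test.

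**Figure D2:**
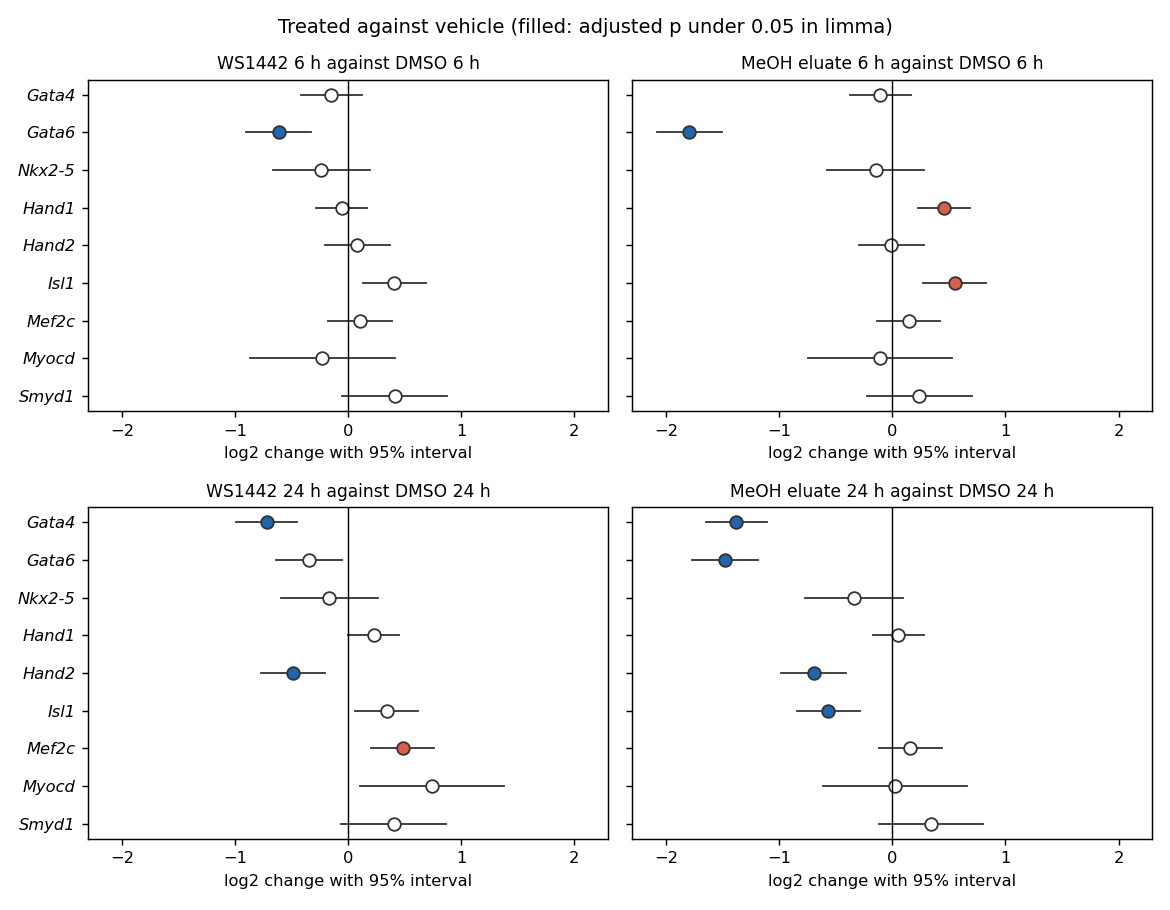
Log2 change against DMSO of the same time point for the 9 measured member genes with WS1442 and MeOH eluate after 6 h and 24 h. Bars on the points are 95% confidence intervals of the limma fit and filled points passed at an adjusted p under 0.05. The MeOH eluate changes of Gata6, -1.79 at 6 h and -1.48 at 24 h, and of Gata4 at 24 h, -1.38, are the largest.

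The preparations were compared directly at each time, at unequal doses of 0.25 and 0.1 mg/ml, so the differences are those between the treatments as given. At 6 h, Gata6 was 2.26-fold lower with MeOH eluate than with WS1442 (log2 difference -1.18, SE 0.12, limma adjusted p = 6.02e-05), and Hand1 was 1.43-fold higher (0.51, SE 0.09, 0.00449). These 2 of 9 members passed, against 12.1% of 29249 genes (4.80% higher and 7.34% lower), and they were also the 2 whose arrays did not overlap (30.8% of genes). At 24 h, Gata6 was 2.19-fold lower (-1.13, SE 0.12, 9.58e-05), Isl1 1.88-fold lower (-0.91, SE 0.12, 0.000304) and Gata4 1.58-fold lower (-0.66, SE 0.11, 0.00176). These 3 of 9 passed, against 14.5% of 29248 genes (7.39% higher and 7.10% lower), and 7 members had every MeOH eluate array under every WS1442 array (36.0% of genes did not overlap in either direction). The 4 of those that did not pass were Hand1 (-0.17, limma adjusted p = 0.260), Hand2 (-0.21, 0.290), Mef2c (-0.32, 0.0816) and Myocd (-0.72, 0.0920). At the study's thresholds Gata6 alone passed at 6 h (1.20% of genes) and at 24 h (0.482%). Hand2 had a 95% confidence interval of -0.46 to 0.05, so a further fall with MeOH eluate could not be told from an equal level at 24 h.

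**Figure D3:**
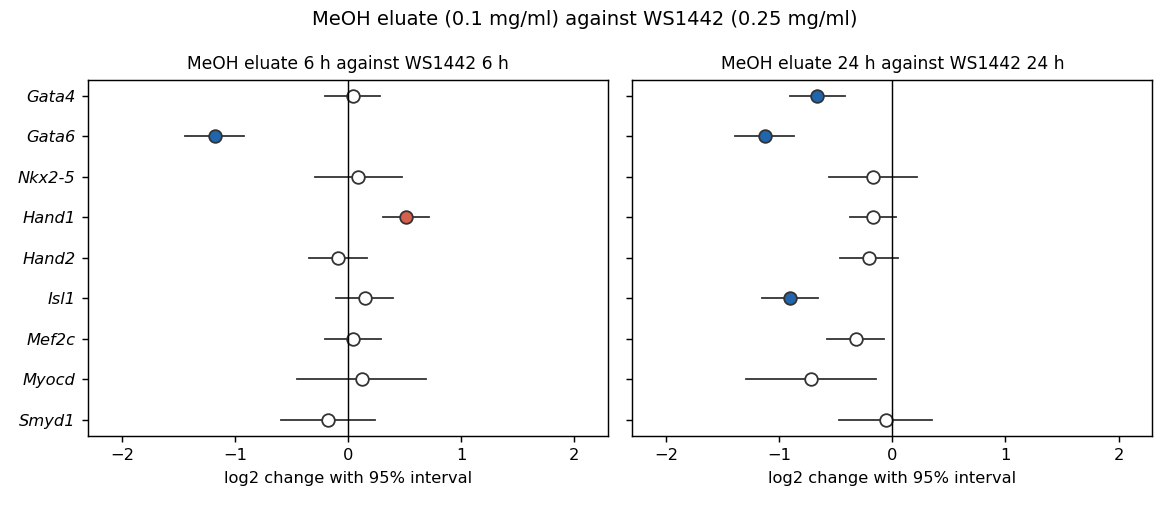
Log2 difference of MeOH eluate (0.1 mg/ml) from WS1442 (0.25 mg/ml) for the 9 measured member genes at 6 h and 24 h, with 95% confidence intervals of the limma fit. Filled points passed at an adjusted p under 0.05. Gata6 lies near -1.18 at 6 h and -1.13 at 24 h, and Isl1 and Gata4 are lower at 24 h alone among the differences that passed.

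Whether a treatment acted differently at 24 h and at 6 h was tested as the difference of the 2 changes from DMSO, in which an additive slide effect cancels. With MeOH eluate the effect on Gata4 was lower at 24 h by -1.27 (SE 0.18, limma adjusted p = 0.000444), that on Isl1 by -1.12 (SE 0.18, 0.00152) and that on Hand2 by -0.69 (SE 0.19, 0.0398). These 3 of 9, all lower, compare with 7.69% of 29240 genes (3.87% higher and 3.81% lower), and Gata4 and Isl1 also passed the study's thresholds (3.35% of genes). The Hand2 difference was lost without any 1 of 10 of the 16 arrays (0.0528 to 0.169). The MeOH eluate effect on Gata6 differed by 0.32 (95% confidence interval -0.09 to 0.73, limma adjusted p = 0.381). With WS1442, 0 of the 9 members passed (12.4% of 29241 genes, 5.65% higher and 6.78% lower) or reached the study's thresholds (2.01%), where Gata4 (-0.57, limma adjusted p = 0.0529), Hand2 (-0.57, 0.0647) and Myocd (0.97, 0.158) had the largest differences. These 3 were also the members with an unadjusted p under 0.05. Leaving out 1 array let Gata4 pass (without WS1442 6 h replicate 3, WS1442 24 h replicate 3 or MeOH eluate 24 h replicate 3), Hand2 (without DMSO 24 h replicate 2), Hand1 (without WS1442 6 h replicate 1) or Hand2 and Myocd together (without WS1442 6 h replicate 2).

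**Figure D4:**
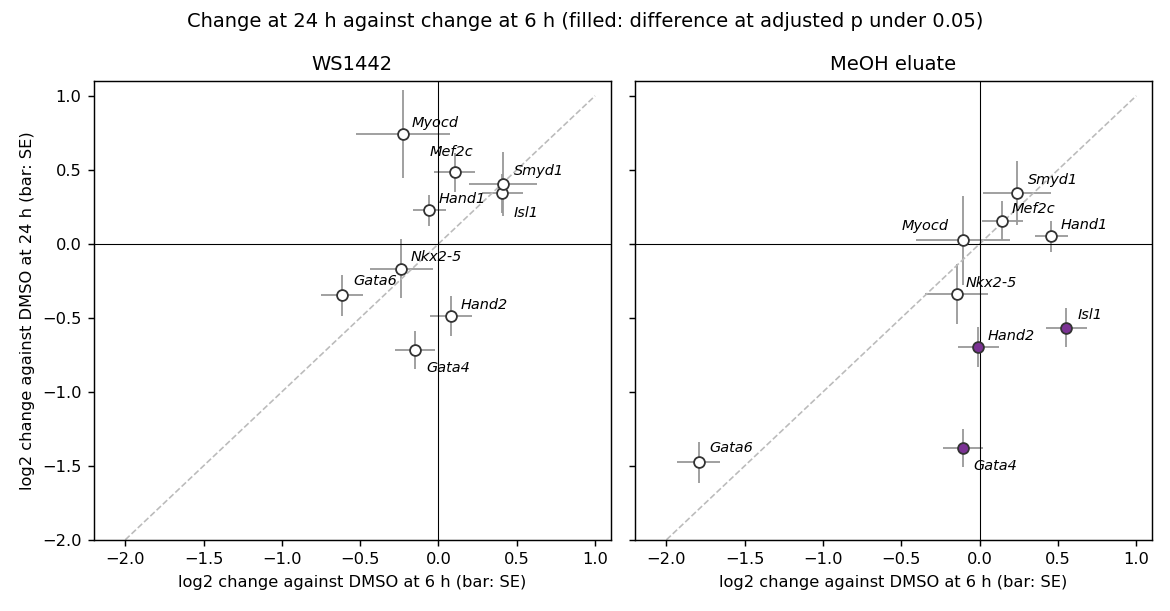
Log2 change from DMSO at 6 h and at 24 h for the 9 measured member genes, for each preparation, with the 6 h change on the horizontal axis, the 24 h change on the vertical axis, standard errors as bars and equal changes on the dashed line. Filled points, where the 2 changes differed at a limma adjusted p under 0.05, are Gata4, Isl1 and Hand2 with MeOH eluate, all under the line, with changes going from -0.11 to -1.38, from 0.55 to -0.57 and from -0.01 to -0.70.

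Genes that act with or next to the members were described by lists. Of the 23 partner and cofactor genes, all tested, WS1442 at 6 h raised 3 and lowered 0, MeOH eluate at 6 h raised 4 and lowered 2, WS1442 at 24 h raised 4 and lowered 5, and MeOH eluate at 24 h raised 1 and lowered 3. Over all genes in the same order 3.95% rose and 1.34% fell, 8.68% and 8.36%, 12.8% and 11.8%, and 9.61% and 8.57%. The counts of every list below compare with these shares of the same comparison. Zfpm1, the FOG1 cofactor that binds GATA zinc fingers, fell with MeOH eluate at 24 h (-0.94, SE 0.05, limma adjusted p = 2.64e-08). Hey2, a Notch-responsive repressor of the ventricle, was well above background on none of those 3 arrays and was at least 1.85-fold lower (0.0164). Among the relatives of Mef2c and Myocd, Mef2d rose at 6 h with WS1442 (0.34, 0.00686) and with MeOH eluate (0.51, 5.5e-05), as did Mkl2, a myocardin-related coactivator (0.33, 0.0175, and 0.30, 0.0102). Mef2a fell with MeOH eluate at 6 h (-0.52, 0.00936) and with WS1442 at 24 h (-0.50, 0.00852), and Srf, the partner of Myocd, rose with WS1442 at 24 h (0.50, 0.00544).

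Early cardiac mesoderm genes, which act before or beside the members, numbered 15, all tested. Of these, 2 rose and 4 fell with WS1442 at 6 h (3.95% and 1.34% of all genes), and 3 and 7 with MeOH eluate (8.68% and 8.36%). At 24 h, 0 rose and 2 fell with WS1442 (12.8% and 11.8%), and 2 and 5 with MeOH eluate (9.61% and 8.57%). The median changes of the list were in that order -0.20, -0.55, -0.17 and -0.14, against -0.01, -0.0005, 0.05 and 0.01 over all genes. With MeOH eluate at 6 h, T, the brachyury factor of nascent mesoderm, fell by 1.29 on the log2 scale (limma adjusted p = 1.92e-06), Tdgf1, the Nodal coreceptor, by 1.17 (5.44e-08) and Fgf10, a second heart field ligand, by 1.26 (9.05e-07). Rises at 6 h included the ligand genes Bmp5 (1.65, 0.0131 with WS1442, and 1.13, 0.0323 with MeOH eluate) and Bmp7 (0.64, 0.00408, and 0.60, 0.00144). Dkk1, a secreted Wnt inhibitor, fell at 6 h with WS1442 (-0.75, 0.00978) and MeOH eluate (-0.89, 0.000714) and rose at 24 h with MeOH eluate (0.88, 0.000468). At 24 h with MeOH eluate Fgf10 (-1.20, 7.92e-07), Tdgf1 (-0.69, 5.33e-06) and Eomes, a mesendoderm T-box factor (-0.74, 4.52e-05), were lower. Mesp1, the regulator of the first cardiovascular progenitors, fell at 24 h with WS1442 (-0.66, 0.00364) and MeOH eluate (-0.48, 0.0284).

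Second heart field and retinoic acid genes included Foxc2, Foxc1, Foxf1 and Aldh1a2, each of which rose more than 2-fold with both preparations at one of the times. Of 16 tested of 18, 4 rose and 1 fell with WS1442 at 6 h, 4 and 4 with MeOH eluate at 6 h, 6 and 1 with WS1442 at 24 h, and 3 and 4 with MeOH eluate at 24 h. At 6 h the forkhead genes Foxc2, Foxc1 and Foxf1 rose with WS1442 (1.86, 1.01 and 1.20) and with MeOH eluate (3.24, 1.58 and 1.29), and the highest of these 6 limma adjusted p-values was 0.00313. Aldh1a2, which makes retinoic acid, rose at 24 h with WS1442 (2.39, 5.95e-07) and MeOH eluate (2.77, 3.97e-08), and Cyp26a1, which degrades it, fell with MeOH eluate at 6 h (-1.27, 2.88e-06) and 24 h (-1.08, 8.13e-06).

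Heart muscle genes moved in both directions. Of 21 tested of 24, 1 rose and 1 fell with WS1442 at 6 h (3.95% and 1.34% of all genes), and 2 and 3 with MeOH eluate (8.68% and 8.36%). At 24 h, 2 rose and 5 fell with WS1442 (12.8% and 11.8%), and 2 and 4 with MeOH eluate (9.61% and 8.57%). Myl7, the atrial light chain, rose at 6 h with WS1442 (0.61, limma adjusted p = 0.0413) and MeOH eluate (1.05, 0.000509) and fell at 24 h with both (-1.17, 0.000159, and -2.02, 7.91e-07). Csrp3, a muscle LIM protein, rose at 24 h with both (1.54, 0.000135, and 1.96, 1.14e-05). Ankrd1, a stretch-responsive cofactor, rose with MeOH eluate at 6 h (1.11, 7.98e-05) and fell with it at 24 h (-0.91, 0.000263). Gja5, a connexin of the atria and conduction system, was well above background on none of the DMSO arrays at 24 h and rose at least 2.45-fold with MeOH eluate (0.00506).

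Among 20 family relatives tested of 21, WS1442 raised 2 and lowered 0 at 6 h and raised 6 and lowered 1 at 24 h, and MeOH eluate raised 2 and lowered 1 at 6 h and raised 2 and lowered 2 at 24 h. Gata3 fell with both preparations at 24 h (-0.55, limma adjusted p = 0.000604 with WS1442, and -1.20, 5.37e-07 with MeOH eluate), while Gata2 rose with WS1442 (0.35, 0.0123). Nkx2-6, a relative of Nkx2-5, rose at 6 h with WS1442 (0.97, 0.0325) and MeOH eluate (1.32, 0.00176). Twist1, a helix-loop-helix relative of the Hand genes, rose with MeOH eluate at 6 h (0.91, 8.85e-06) and 24 h (0.47, 0.00167).

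**Figure D5:**
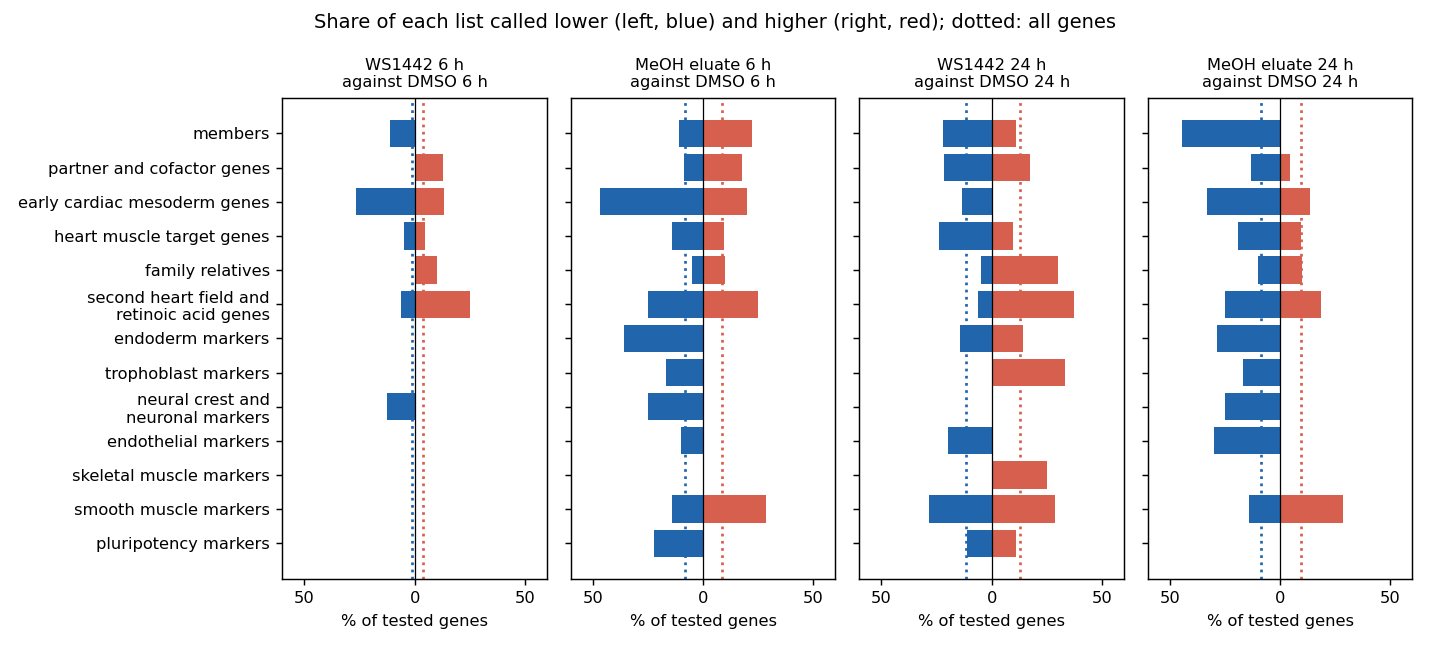
Percent of the tested genes of each list, and of the 9 tested members, that rose (red, to the right) or fell (blue, to the left) at a limma adjusted p under 0.05 in the 4 comparisons with DMSO, with dotted lines for all genes tested. Among the 15 early cardiac mesoderm genes 7 fell with MeOH eluate at 6 h, and among the 16 second heart field and retinoic acid genes 6 rose with WS1442 at 24 h.

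Markers of other cell types that use some of the same factors also moved. Of 14 endoderm markers tested of 19, WS1442 raised 0 and lowered 0 at 6 h and raised 2 and lowered 2 at 24 h, and MeOH eluate lowered 5 at 6 h and 4 at 24 h and raised 0. The log2 of their summed level at 6 h was 14.23 to 14.27 in DMSO and 14.06 to 14.18 with MeOH eluate, and at 24 h 14.43 to 14.46 and 14.32 to 14.45. Sox17, an endoderm and haemogenic endothelium factor, fell with MeOH eluate at 6 h (-0.65, limma adjusted p = 0.00625) and 24 h (-1.65, 1.86e-06), and Foxa2, a defining endoderm factor, at 6 h (-0.71, 0.00485), while Ttr and Apoa1 were well above background on no array. With MeOH eluate at 24 h, when Gata4 fell, the 4 that fell were Sox17, Hhex (-0.52, 0.0108), Col4a1 (-0.25, 0.0210) and Lamb1 (-0.14, 0.0362). Foxa2 did not pass there (-0.12, 0.677). With WS1442 at 6 h, when Gata6 fell, 10 of the 14 endoderm markers were lower and 4 higher, none of which passed. Their median change was -0.17, against -0.01 over all genes. The part of these markers in the member changes was not tested.

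Some endothelial markers fell at 24 h, when Gata4 and Hand2 fell. Of 10 tested of 11, 2 fell with WS1442 (11.8% of all genes) and 3 with MeOH eluate (8.57%) at 24 h and none rose. At 6 h 0 changed with WS1442 and 1 fell with MeOH eluate. The log2 summed level at 24 h was 11.73 to 11.79 in DMSO, 11.03 to 11.05 with WS1442 and 10.23 to 10.43 with MeOH eluate. Etv2 weighed heavily in that sum, with a mean log2 level of 11.19 in DMSO and 8.67 with MeOH eluate at 24 h. Etv2, the master factor of blood and endothelial progenitors, fell with WS1442 (-1.04, limma adjusted p = 1.24e-05) and with MeOH eluate (-2.52, 4.09e-09), as did Tal1 (-1.19, 0.000157, and -1.89, 1.91e-06). Cdh5, the endothelial cadherin, was well above background on none of the MeOH eluate arrays at 24 h and at least 2.08-fold lower (0.00153), and Emcn was above it on no array. The other 7 tested markers did not pass with MeOH eluate at 24 h, among them Pecam1 (0.12, 0.721), Flt1 (-0.09, 0.564) and Tek (0.38, 0.375). Their part in the member changes was not tested.

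Of 6 trophoblast markers tested of 8, 1 fell with MeOH eluate at each time, which was Cdx2, and 2 rose with WS1442 at 24 h. Hand1 rose at 6 h with MeOH eluate, when the log2 summed trophoblast level was 9.72 to 9.82 against 9.69 to 9.77 in DMSO. Gcm1 weighed heavily in that sum, with a mean log2 level of 9.18 in DMSO and 9.26 with MeOH eluate. Of the 6 trophoblast markers, 3 were higher and 3 lower in that comparison, with Cdx2 lower by a log2 change of -1.74 (limma adjusted p = 0.00243). Tpbpa was above background on no array. Of 8 neural crest and neuronal markers tested of 12, 1 fell with WS1442 at 6 h, and 2 with MeOH eluate at each time, with none rising, and Neurod1 and Pou4f1 were above background on no array. Isl1 is also a gene of motor and sensory neurons, and the log2 summed level of this list at 6 h was 11.83 to 11.91 in DMSO and 11.47 to 11.56 with MeOH eluate, lower while Isl1 was higher. Phox2a weighed heavily in that sum, with a mean log2 level of 11.14 in DMSO and 10.32 with MeOH eluate. Of the 8 neural crest and neuronal markers, 3 were higher and 5 lower in that comparison. Of 7 smooth muscle markers, 2 rose and 1 fell with MeOH eluate at each time, 2 rose and 2 fell with WS1442 at 24 h and none moved with WS1442 at 6 h. Of 4 skeletal muscle markers tested of 6, Myod1 rose with WS1442 at 24 h (0.44, limma adjusted p = 0.0182). Of 9 pluripotency markers, Nanog (-0.94, 0.00161) and Dppa3 (-0.58, 0.0341) fell with MeOH eluate at 6 h, and with WS1442 at 24 h Sox2 fell (-0.57, 0.0138) and Klf2 rose (0.51, 0.00109). The part of these markers in the member changes was not tested.

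Genes whose levels were most like those of the changed members over the 16 arrays were ranked by Pearson correlation after the mean of the 8 arrays of each time point was subtracted. Points share slides, groups and normalization, so the values are descriptions without a p. Gata6 was followed most closely by Msx1, Cyp26a1 and Fgf10 (r = 0.98 each), and Gata4 by Gm6756, Psat1 and Etv2 (r = 0.95 each). Hand1 was nearest Nron (r = 0.96), Hand2 Wdr73 (r = 0.94), Isl1 Rnf145 (r = 0.94) and Mef2c Gm34315 (r = 0.93).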

How the data were processed

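RNA of the 16 samples was labelled with Cy3 and hybridised by a service provider to 1-colour Agilent arrays. Per the file headers, the deposited scanner intensities come from Agilent Feature Extraction 11.5.1.1, whose processed signal is corrected for background within each array, and the authors' series table holds intensities on a linear scale, quantile normalized over the 16 arrays. That table's log2 values of the member probes used here differed by at most 0.0148 from those computed from the scanner files and served as an alternative. The arrays' number limits the precision.

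Control spots and outlier spots were left out, spots of a probe averaged, and log2 processed signals quantile normalized in limma 3.58.1 (R 4.3.3, data.table package at version 1.17.8). The 36729 of 60273 probes that stood well above background in all arrays of some group were kept, and 6 group means were fitted over all 16 arrays with eBayes and a variance trend, with Benjamini-Hochberg adjustment over all kept probes. A gene was called by its leading probe, the brightest of its kept probes on average, at an adjusted p under 0.05. Where a fold is given as a lower bound, it sets the brighter group against the lowest signal well above background on each array of the dimmer group, or the probe's own signal where that was higher. The steps were tested on simulated data. Probes were named by the gene name of the files or, where it held none, by their accession among the RefSeq genes. Promoter windows are from RefSeq in GRCm38.p6, and probe sequences are those deposited with the scanner intensities. Member windows on chromosome 18, where Gata6 lies, were left out, and 6 of 10 members had a promoter among the rest. The leading probes have no position in the files. Figures were drawn with matplotlib 3.10.9 and pandas 2.3.3 (Python 3.11.15).

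Named genes are all members, from each list up to 4 genes per comparison with the largest change among called genes lying beyond both DMSO arrays on every treated array, and for each called member the 3 most correlated genes, of which some are given. Members and lists were chosen with earlier results of these data known. The thresholds of the methods (a log2 change beyond 1 at an unadjusted p under 0.05) and the methods' t-test were run beside limma. Alternatives covered background correction, scaling, filter, probe choice, samples in the fit, variance prior, array weights, blocks, the authors' table, and each array left out in turn.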

Additional observations from a re-analysis of the deposited data

Results flagged for a closer look

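The MeOH eluate effect on 3 members differed between the time points by the limma test of the difference itself. For Gata4 the effect was -0.11 at 6 h and -1.38 at 24 h, a difference of -1.27 (adjusted p = 0.000444). For Isl1 it was 0.55 at 6 h and -0.57 at 24 h, a difference of -1.12 (adjusted p = 0.00152). For Hand2 it was -0.01 and -0.70, a difference of -0.69 (adjusted p = 0.0398). Each time point lay on its own slide, and an effect of slide that depends on treatment cannot be told apart from time. Groups of 2 or 3 arrays were too small for a search for outlying samples.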

How the results depend on the processing

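Over 12 alternatives and 16 fits with 1 array left out, member changes that passed kept their direction and passed in 487 results and failed to pass in 39, and those that did not pass kept both in 881, passed in 21 and changed sign in 14. The methods' t-test after adjustment gave 0 members in each of the 6 pairwise comparisons (in limma 1, 3, 3, 4, 2 and 3), though at its thresholds in the methods it gave 0, 1, 0, 2, 1 and 1. Over all genes it gave, in that order, 54, 463, 260, 422, 99 and 79 at those thresholds, and 1, 5, 7, 177, 6 and 204 after adjustment. It gave 0 genes for every list except 1 for second heart field and retinoic acid genes, where limma called, in at least 1 comparison with DMSO, 12 partner and cofactor, 11 early mesoderm, 9 heart muscle, 9 family, 12 second heart field and retinoic acid, 8 endoderm, 3 trophoblast, 4 neural crest, 3 endothelial, 1 skeletal muscle, 6 smooth muscle and 4 pluripotency genes. With WS1442 at 6 h, 0 members passed without the variance trend and with the replicate block (Gata6, adjusted p = 0.0541 and 0.0535). With the slide position as a block 5 passed with WS1442 at 24 h. For the difference of the WS1442 effects 1 passed with 75th percentile scaling (Gata4), 2 with probes well above background on all arrays (Gata4 and Hand2) and 1 without the trend (Hand2). The trophoblast count was 1 with the filter on all arrays, the neural crest count 2 without a filter and 2 with the replicate block, the skeletal muscle count 2 with only the arrays of the time point and 2 with array weights, and the smooth muscle count 3 with the replicate block. The cause of these shifts was not tested. Replicate numbers were not taken as pairs, because deviations of same-numbered samples correlated at -0.224 to 0.284 over 14 pairs. With the replicate block the MeOH eluate difference for Hand2 also lost its call (0.0692), as it did without a filter (0.0581). With each array left out in turn the member counts ranged from 0 to 1 for WS1442 and 2 to 3 for MeOH eluate at 6 h, 1 to 5 and 3 to 4 at 24 h, 2 to 2 and 3 to 4 between the preparations at 6 h and 24 h, and 0 to 2 and 2 to 4 for the differences between times with WS1442 and MeOH eluate. The list counts ranged, in the order above, from 8 to 14, 10 to 11, 7 to 12, 6 to 11, 10 to 14, 6 to 9, 1 to 3, 2 to 5, 3 to 3, 0 to 1, 3 to 6 and 3 to 6. Without DMSO 24 h replicate 1, and likewise without WS1442 24 h replicate 3, the counts were 1 for trophoblast, 0 for skeletal muscle and 3 for smooth muscle, and without DMSO 24 h replicate 2 or MeOH eluate 24 h replicate 2 that for neural crest was 2. The changes of sign were all of values near 0 that passed nowhere. Hand2 with MeOH eluate at 6 h was 0.00784 with array weights, 0.0114 with the slide position block and -0.0478 to 0.0376 with an array left out. Myocd with MeOH eluate at 24 h was -0.0978 with 75th percentile scaling, -0.0311 with the slide position block and -0.0582 to 0.13 with an array left out. With an array left out, Nkx2-5 with WS1442 at 24 h ranged from -0.37 to 0.0375, Hand1 with WS1442 at 6 h from -0.18 to 0.00703, Mef2c with WS1442 at 6 h from -0.012 to 0.22 and Mef2c with MeOH eluate at 24 h from -0.0445 to 0.36. With 2 DMSO arrays per time point, small changes of dim genes such as Myocd and Nkx2-5 could not be resolved.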
